A study of Mus musculus with 2 samples.

Results

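The p53 targets and senescence-linked cell cycle inhibitors are 10 mouse genes, listed by name, that were read from every probe set whose platform annotation names one of them and no other gene. The rule gave 16 probe sets, of 34945 that name a single gene, for 9 of the 10 genes: Cdkn1a, Cdkn1b, Cdkn2a, Cdkn2b, Cdkn2c, Mdm2, Ccng1, Gadd45a and Btg2. No probe set named Trp53, the p53 gene itself, alone, and it was not analysed here. The tissue was hind limb interdigit of mouse embryos at E13.5, the day of gestation, cut from the regions labelled ID2 and ID3 after natural mating. One array came from embryos homozygous for Hammer toe, a mutation that leaves webbing between the digits. The other came from wild-type embryos labelled B6. The Hammer toe labels give no strain, so strain and genotype cannot be told apart. The series design names 3 sets of 5 littermates, 15 embryos per genotype. How these sets were combined on the single array of each genotype is not given in the sources used here. There were thus no replicates, no test was possible, and the number of arrays limits the precision of every value below.

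In the interdigit, mesenchyme regresses between the forming digits by cell death, and cells there and in the apical ridge can also enter developmental senescence, a programmed arrest of the cell cycle. The protein p21, made from Cdkn1a, is known as the main mediator of that arrest in the embryo, and p15, made from Cdkn2b, has been linked to it too. After DNA damage, p53 binds a pair of half-sites in the DNA of its targets and raises their transcription. Among them Cdkn1a halts the cell cycle, Gadd45a acts in DNA repair and stress signalling, Btg2 restrains proliferation, Ccng1 feeds back on the pathway, and Mdm2 encodes the ligase that marks p53 for breakdown. The Cip/Kip inhibitors p21 and p27 (Cdkn1b) bind cyclin-CDK complexes. The INK4 inhibitors p16 (Cdkn2a), p15 and p18 (Cdkn2c) bind CDK4 and CDK6, and Cdkn2a also encodes Arf, which holds Mdm2 back from p53.

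The promoter sequences show how closely the DNA next to each start site matches the p53 element. Promoter windows from RefSeq on GRCm38.p6, 250 bases before to 50 bases after a gene's start, were found for all 10 listed genes, 13 windows in all. They were compared on both strands with the p53 consensus of 2 adjacent half-sites, 20 letters in all. The consensus reads the same on both strands, and no other motif was searched. A window of Cdkn1a and the window of Ccng1 each held a stretch that matched 19 of the 20 letters, and 0.0883% of all 32851 windows matched 19 or more. These are the sequences of the 2 members closest to the consensus, with the matched stretch in capitals. The Cdkn1a window lies on the plus strand at chr17:29090729-29091028 and the Ccng1 window on the minus strand at chr11:40755237-40755536. The stretch begins 51 bases before the upstream start of Cdkn1a and 195 bases before the start of Ccng1. The window at the downstream start of Cdkn1a lies at chr17:29093519-29093818 and does not hold this stretch.
Cdkn1a: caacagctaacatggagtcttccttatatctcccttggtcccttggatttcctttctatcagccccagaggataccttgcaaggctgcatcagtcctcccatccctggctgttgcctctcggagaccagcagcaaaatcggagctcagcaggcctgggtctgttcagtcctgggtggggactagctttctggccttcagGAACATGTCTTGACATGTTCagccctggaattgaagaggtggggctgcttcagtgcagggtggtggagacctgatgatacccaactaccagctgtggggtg
Ccng1: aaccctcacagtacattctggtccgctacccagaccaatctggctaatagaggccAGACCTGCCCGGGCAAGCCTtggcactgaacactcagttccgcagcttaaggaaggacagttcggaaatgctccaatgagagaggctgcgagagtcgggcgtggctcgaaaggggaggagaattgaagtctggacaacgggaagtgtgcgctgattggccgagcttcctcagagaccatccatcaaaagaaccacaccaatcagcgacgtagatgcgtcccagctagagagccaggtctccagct

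The best stretch of each p53 target is shown base by base below, with capitals for the letters that match the consensus. Cdkn1a and Ccng1 miss 1 letter each. The best stretch in Gadd45a matched 17 letters, as did those in Cdkn1b and Trp53, and 6.29% of all windows matched 17 or more. Those in Btg2 and Mdm2 matched 16 and 15, where the median over all windows was 15. Those in the windows of the INK4 members matched 14 to 16.
Cdkn1a: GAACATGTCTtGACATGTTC
Ccng1: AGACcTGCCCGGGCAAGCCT
Gadd45a: AAACTAcCTaGAGCTgGCTC
Btg2: GGGaAAGTCCGGGCAgagCC
Mdm2: GAACTTGCCTAGcgAccaTT
A match describes the letters only, and its absence from a window this short says nothing about elements further away. The second window of Cdkn1a, at its downstream start, matched 15 letters.

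The p53 targets read nearly alike on both arrays. Values are MAS5 intensities, a scanner brightness per probe set that the authors scaled to a common level, and ratios are log2 of Hammer toe over wild type. Cdkn1a read 160 on the Hammer toe array and 153 on the wild-type array with probe set 1424638_at, a log2 ratio of 0.07. Its second probe set, 1421679_a_at, read 128 in Hammer toe and 115 in wild type, a log2 ratio of 0.16. Both probe sets of this arrest gene were thus slightly brighter in Hammer toe, by 1.05-fold and 1.12-fold. In tissue made of many cells, fewer cells of a type and less RNA per cell cannot be told apart, so these values do not say how many cells expressed Cdkn1a.

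Ccng1, the cyclin G1 gene with the other close p53 element, had the smallest ratio among the members' brightest probe sets. Its brightest probe set, 1420827_a_at, read 1219 in Hammer toe and 1215 in wild type, a log2 ratio of 0.004 that became -0.003 with the ratios centred on the median of all genes. The others read 382 in Hammer toe and 364 in wild type (1450016_at), and 347 in Hammer toe and 341 in wild type (1450017_at). All 3 probe sets lay within 1.1-fold. Without the _a_at type the Ccng1 ratio was 0.07, further from wild type than Cdkn2c and Cdkn1b at -0.03 each.

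Gadd45a, a stress-response gene, had a single probe set, 1449519_at, which read 400 in Hammer toe and 355 in wild type. This log2 ratio of 0.17, 1.13-fold, was the highest among the members' brightest probe sets. Btg2, an antiproliferative gene, read 210 in Hammer toe and 217 in wild type with 1416250_at, a log2 ratio of -0.05. Its dimmer probe set, 1448272_at, read 139 in Hammer toe and 185 in wild type, a log2 ratio of -0.41. At 1.33-fold lower, that was the member probe set furthest from wild type, but the brighter probe set of the same gene was within 1.1-fold.

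Mdm2, which restrains p53 and is also its target, gave probe sets on opposite sides. The brightest, 1423605_a_at, read 754 in Hammer toe and 864 in wild type, a log2 ratio of -0.20. The next, 1427718_a_at, read 549 in Hammer toe and 519 in wild type, a log2 ratio of 0.08. Both are of the _a_at type, which binds several transcripts of a gene. The third, 1457929_at, read 8.03 in Hammer toe and 29.8 in wild type. That is under the floor of 78.1, the median of all probe sets other than controls on both arrays, below which ratios were not taken.

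The Cip/Kip inhibitor Cdkn1b was likewise close to wild type. Probe set 1434045_at read 1908 in Hammer toe and 1951 in wild type, a log2 ratio of -0.03. Probe set 1419497_at read 298 in Hammer toe and 252 in wild type, a log2 ratio of 0.24, the highest of any member probe set. The mean over both was 0.10, so the sign for this gene depended on which probe set was read.

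Of the 3 INK4 inhibitors among the members, Cdkn2c alone had a level above the floor. Its probe set 1416868_at read 589 in Hammer toe and 601 in wild type, a log2 ratio of -0.03. Cdkn2a, through the single probe set 1450140_a_at, read 8.37 in Hammer toe and 18.3 in wild type. Cdkn2b, through 1449152_at, read 14.0 in Hammer toe and 61.9 in wild type. The Hammer toe value was the lower one for both genes and for the third Mdm2 probe set, but no fold is given, since both arrays were under the floor. Unequal values were common in that range. Of 4356 named probe sets whose brighter array read from 40 up to the floor, as for Cdkn2b, 25.6% were 2-fold or more apart and 11.2% were 4-fold or more apart, the Cdkn2b pair among them. Of 4183 whose brighter array read from 20 to 40, as for the third Mdm2 probe set, 46.2% were 2-fold or more apart. Of 5411 whose brighter array read up to 20, as for Cdkn2a, the share was 49.4%.

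**Figure D1:**
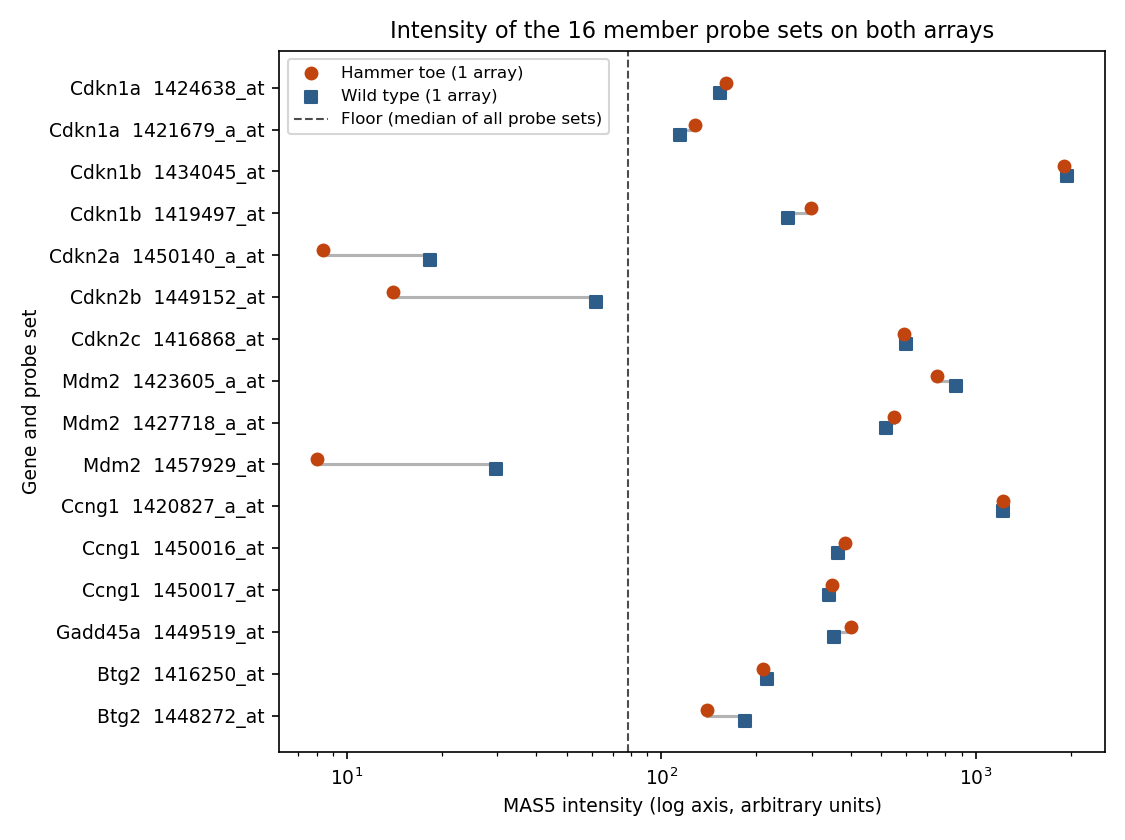
MAS5 intensity (log axis) of the 16 member probe sets, with Hammer toe as circles and wild type as squares, 1 array each, and the floor of 78.1 as a dashed line. The 13 probe sets over the floor on each array have symbols closer together than the other 3. Among the 13, the dimmer Btg2 probe set is furthest apart, at 139 in Hammer toe and 185 in wild type. The 3 with widely separated symbols, of Cdkn2a, Cdkn2b and Mdm2, lie under the floor.

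As a group the measured members stood close to wild type. Each gene was represented by its brightest probe set on average, and was called measured if at least 1 of its arrays exceeded the floor, which held for 7 of the 9 genes. Of these, 3 were higher and 4 lower in Hammer toe, against 51.7% higher and 48.3% lower among all 11621 measured genes. None of the 7 reached 1.5-fold, as 3.56% of measured genes did, and none reached 1.2-fold, as 20.5% did. With 7 genes, counts of 0 do not set the members apart from these shares. The median log2 ratio of the 7 was -0.03, with a range of -0.20 to 0.17, beside 0.01 for all measured genes. With all measured probe sets of a gene averaged the median was 0.03, and without probe sets of the _x_at, _s_at and _a_at types it was 0.02.

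Counted by probe set, the members were as close. Of the 13 over the floor on each array, 8 were higher and 5 lower in Hammer toe, beside 9730 higher and 9731 lower among all 19461 such named probe sets. Only the dimmer Btg2 probe set passed 1.2-fold, as 21.4% of named probe sets did. There were 8 within 1.1-fold, beside 54.2% of named probe sets. The median distance from wild type was 1.05-fold for the 13 and 1.09-fold for all named probe sets.

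Without replicates, the spread of all probe sets of like intensity was the yardstick. Where the brighter array read up to 200, 95% of 4364 probe sets had log2 ratios from -0.63 to 0.64. The range was -0.50 to 0.56 for 9733 probe sets from 200 to 1000, and -0.32 to 0.32 for 7420 above 1000. All 13 member probe sets lay inside the range of their class. Of the probe sets in its class, 81.1% were closer to wild type than the dimmer Btg2 probe set. For the dimmer Cdkn1b probe set the share was 71.8%, for the brightest of Mdm2 63.6% and for Gadd45a 57.8%. It was 19.2% for the brighter Cdkn1a probe set and 2.7% for the brightest of Ccng1.

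**Figure D2:**
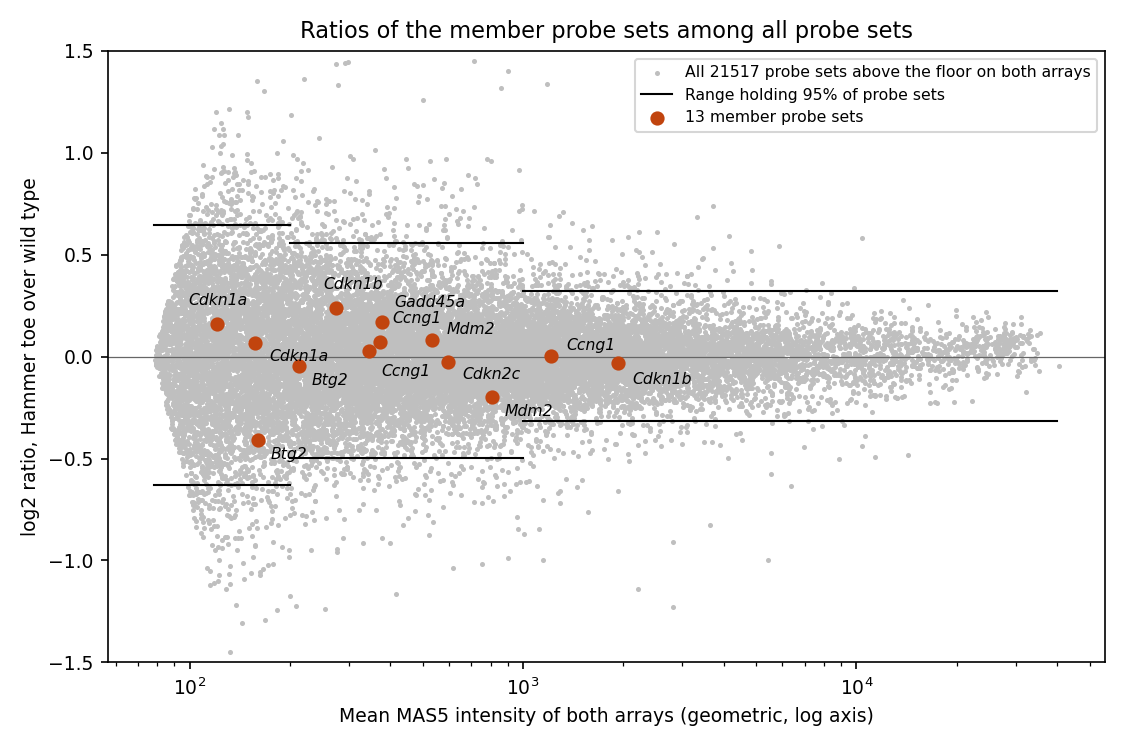
Ratio of Hammer toe to wild type (log2) against the mean intensity of both arrays (log axis) for 21517 probe sets over the floor on each array (grey), with the 13 member probe sets labelled by gene. Black lines mark the range that holds 95% of probe sets in each class of the brighter array, every member lies inside it, and 7 probe sets beyond 1.5 on either side are not drawn.

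Probe sets of 1 gene give a second measure of spread. Of the 5 members with several probe sets over the floor on each array, Cdkn1a, Ccng1 and Btg2 had all of them on the same side, and Cdkn1b and Mdm2 did not. Their log2 ratios spanned 0.07 in Ccng1, 0.09 in Cdkn1a, 0.27 in Cdkn1b, 0.28 in Mdm2 and 0.36 in Btg2. Across 5134 genes, the ratios of different probe sets scattered around their gene's mean with an SD of 0.21. Apart from the dimmer probe sets of Btg2 and Cdkn1b, every member ratio was smaller than that SD. The 18 spiked hybridisation controls ranged from -0.14 to 0.09. These measures leave out the variation between embryos.

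The lists of genes around the members also had medians near wild type. Of 36 other p53 targets, 31 were measured, 21 higher (67.7%, beside 51.7% of all measured genes) and 10 lower, and the median log2 ratio was 0.08, beside 0.01 for all measured genes. None of the 31 reached 1.5-fold, as 3.56% of all measured genes did, a list too short to be set apart by this. At 1.2-fold there were 9 of the 31, beside 20.5% of all measured genes. The 2 furthest from wild type pointed opposite ways. Perp, which encodes a desmosome protein, read 2699 in Hammer toe and 1927 in wild type, a log2 ratio of 0.49. Pmaip1, which encodes the pro-apoptotic protein Noxa, read 562 in Hammer toe and 786 in wild type, a log2 ratio of -0.48. The Perp ratio lay outside the range of -0.32 to 0.32 of its class, and that of Pmaip1 inside its own. Perp is a surface ectoderm gene as well. Of 8 other ectoderm markers 7 were higher in Hammer toe, their intensities summed to 10279 in Hammer toe and 8019 in wild type, none was at 0, and their part in the Perp value was not tested.

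Regulators of p53 were close to wild type as a list. All 21 with a probe set were measured, 14 higher (66.7%, beside 51.7% of all measured genes) and 7 lower, with a median of 0.02. None was at 1.5-fold, as 3.56% of all measured genes were. Rffl, a ubiquitin ligase, read 954 in Hammer toe and 1292 in wild type, a log2 ratio of -0.44 that lay outside the range of its class. Mdm4, the partner of Mdm2 that holds p53 inactive, read 388 in Hammer toe and 513 in wild type, a log2 ratio of -0.40, and stood at 0.14 on its other measured probe set.

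Among the relatives of the cell cycle inhibitors, the other CDK inhibitors and Rb proteins spanned only -0.12 to 0.10. They numbered 6, with 3 higher and 3 lower and a median of -0.04. Cdkn2d, the remaining INK4 gene, read 1434 in Hammer toe and 1557 in wild type. Rbl2, an Rb relative, read 401 in Hammer toe and 375 in wild type and had a log2 ratio of 0.66 on its other measured probe set. Of 8 G1 cyclins and CDKs, 3 were higher (37.5%, beside 51.7% of all measured genes) and 5 lower, with a median of -0.02. Ccne1, the cyclin E1 gene, had a log2 ratio of -0.47 on its brighter probe set, outside the range of its class, and -0.04 on the dimmer one. Cdk6, a target of the INK4 proteins, stood at 0.26, and its 3 measured probe sets ran from 0.26 to 0.36. The 7 measured relatives of Gadd45a, Btg2 and Ccng1 had a median of 0.02, 4 higher (57.1%, beside 51.7%) and 3 lower. The extremes were the antiproliferative genes Tob1 at -0.13 and Tob2 at 0.17, and the 4 measured probe sets of Tob2 spanned -0.59 to 0.17.

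Among the related lists, only that of genes acting upstream of the CDK inhibitors held members past 1.5-fold. There were 2 of 26 measured or 7.69%, beside 3.56% of all measured genes, a count too small to set the list apart. At 1.2-fold there were 6 of the 26, beside 20.5% of all measured genes. Of the 26, 13 were higher and 13 lower, with a median of 0.00. The 2 past 1.5-fold were Tbx3 and Tbx2, which encode T-box repressors known to act on Cdkn2a and Cdkn1a. Tbx3 read 455 in Hammer toe and 262 in wild type, 1.74-fold higher, and had a log2 ratio of 1.33 on its other measured probe set. Tbx2, with 1 measured probe set, read 506 in Hammer toe and 311 in wild type, 1.63-fold higher. On these brightest probe sets both genes lay outside the range of their class. Beside Tbx3 and Tbx2, the values of Cdkn1a stood within 1.12-fold, and those of Cdkn2a were under the floor.

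Of 25 senescence-linked marker and secreted genes, 13 were measured, 7 higher (53.8%, beside 51.7% of all measured genes) and 6 lower, with a median of 0.01. Glb1, which encodes the lysosomal beta-galactosidase stained as a senescence marker, was furthest from wild type. It read 422 in Hammer toe and 600.5 in wild type, a log2 ratio of -0.51, just outside the range of -0.50 to 0.56 that held 95% of probe sets of its class. Igfbp7, a secreted binding protein, stood at 0.30. Cxcl1, a chemokine gene, read 88.3 in Hammer toe and was under the floor at 47.5 in wild type, at least 1.13-fold higher. The cytokine genes Il6, Il1a, Il1b and Ccl2 were under the floor on both arrays, with no value above 69.0 in Hammer toe or 46.3 in wild type.

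**Figure D3:**
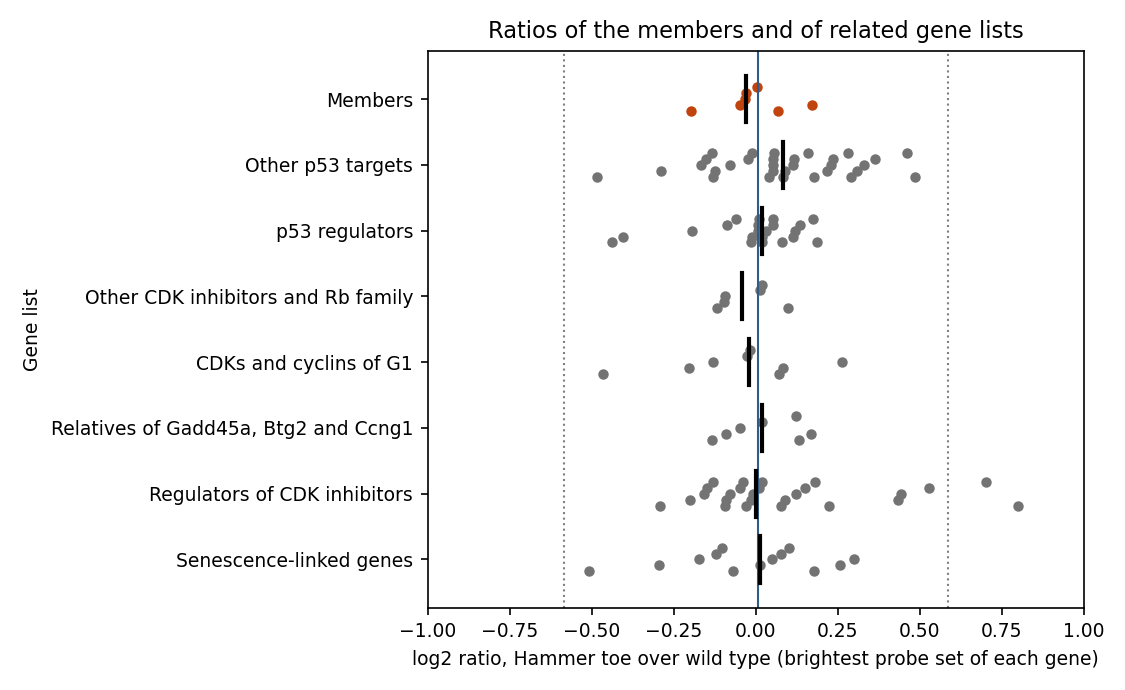
Ratio of Hammer toe to wild type (log2) of each measured gene on its brightest probe set, for the 7 measured members (top row) and 7 related lists. Black bars are list medians, the blue line is the median of all measured genes and dotted lines mark 1.5-fold: the medians run from -0.04 to 0.08, and Tbx2 and Tbx3 are the points beyond 1.5-fold.

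All 7 genes listed as interdigit mesenchyme markers were measured, among them Aldh1a2 at 11474 in Hammer toe and 13129 in wild type. Of the 7, 1 was higher and 6 lower, beside 51.7% higher and 48.3% lower among all measured genes. Their median log2 ratio was -0.19, and Hoxa13, the furthest from wild type at -0.41, lay outside the range of its class. By median log2 ratio, some other lists of cell type markers stood further from wild type than the members, at -0.03, and others stood close. The medians were 0.49 for macrophage, 0.49 for surface ectoderm, 0.44 for muscle, -0.49 for erythroid and -0.64 for cartilage markers. They were -0.05 for endothelial, -0.10 for apical ridge and -0.09 for proliferating cell markers. Macrophage markers were higher in 9 of 10, with summed intensities of 4019 in Hammer toe and 3052 in wild type. Cartilage markers were lower in 7 of 8, with sums of 9166 in Hammer toe and 14348 in wild type. Surface ectoderm markers were higher in 8 of 9, muscle markers higher in 5 of 7 and erythroid markers lower in 6 of 6. Of these markers, 1 for muscle, 2 for surface ectoderm and 1 for cartilage had 1 array under the floor. The part of these cell types in the members' values was not tested. The 7 measured markers of proliferating cells ranged from -0.12 to 0.05.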

How the data were processed

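Hind limb interdigit RNA (250 ng per labelling) was read on 1 Affymetrix array per genotype. The authors deposited 1 intensity per probe set, computed by Affymetrix Expression Console with its MAS5 algorithm, per the submitters' processing notes (version not given). After removal of the top and bottom 2%, each array averaged 500.003, so a shift of most transcripts together cannot be seen. Detection calls were not used.

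Of 45101 probe sets, 64 controls were set aside. GEO's platform annotation, with symbols updated by gene ID through RefSeq (GRCm38.p6), gave 1 gene to 34945 of the rest, several to 932 and none to 9160. Values under the floor of 78.1, the median of all values other than controls, were set to the floor and log2 ratios were then taken. Of 18193 named genes, 11621 were measured. With 1 array per group there was no test, and genes were called by size at 1.5-fold. From each related list the text names members at 1.5-fold or more, or the 2 furthest from wild type; Cxcl1, Il6, Il1a, Il1b, Ccl2 and the tissue markers were named after their values were seen.

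Members, lists and settings were chosen with earlier results of these data known. The alternatives were other scalings, floors, sizes of change and probe set choices. The calculation was tested on simulated data. Python 3.11.15 with pandas 2.3.3, numpy 2.4.6 and statsmodels 0.14.6 was used.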

Additional observations from a re-analysis of the deposited data

How the results depend on the processing

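No member reached 1.5-fold under median centring, quantile normalization, a lowess correction, a pseudocount, a floor at the 75th percentile, averaging of probe sets or leaving out the _x_at, _s_at and _a_at types. Without a floor 2 of 9 did, Cdkn2a and Cdkn2b; lowering it to the 25th percentile left 1 of 8, Cdkn2b; these alternatives admit values under the floor, and 4665 of 18193 genes (25.6%) and 2260 of 15722 genes (14.4%) then passed 1.5-fold, against 414 of 11621 (3.56%). That background was 46 of 7026 for the floor raised to the 75th percentile and, of 11621, 200 with a pseudocount, 1720 at the smaller size of change tried and 43 at 2-fold. With the floor at the 75th percentile 1 of the 4 measured members was higher in Hammer toe, as fewer genes were tested. The members' median log2 ratio stayed between -0.04 and 0.03. In all alternatives computed, each measured member moved by less than the SD of 0.21 between probe sets of 1 gene, and the sign turned for Cdkn1b with probe sets averaged (0.10) and for Ccng1 with median centring (-0.003). All 63 medians of the related lists moved by less than that SD too. No paired analysis was possible because each genotype has 1 array. Signal under the floor on both arrays limits what can be read for Cdkn2a and Cdkn2b.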

Other observations

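Genes were also picked by sequence alone, from the promoter windows that match the p53 consensus at 18 or more of 20 letters, a choice made after the data were seen. There were 254 such genes and 86 were measured. Of these 41 were higher and 45 lower in Hammer toe, with a median log2 ratio of -0.01, and 17 (19.8%) reached 1.2-fold, beside 20.5% of all measured genes. At 1.5-fold there were 5 (5.81%), beside 3.56% of all measured genes. They were Tbc1d5 at 0.88, Il1f5 at 0.76 or more, since its wild-type value was under the floor, and Pid1 at 0.59, higher in Hammer toe, and Sec22c at -0.89 and Spock2 at -0.65. At 19 or more letters there were 29 genes, of which 7 were measured, 3 higher and 4 lower. Besides Cdkn1a and Ccng1 they included the p53 targets Rps27l, a ribosomal protein relative, at a log2 ratio of -0.02, and Gtse1, a regulator of p53 in the cell cycle, at -0.01. The 2 that passed 1.2-fold were Eprn at -0.49 and Mthfd1, a folate enzyme gene, at 0.36 on its brightest probe set. A dimmer probe set of Mthfd1 stood at only 0.065. These 2 of 7 are 28.6%, beside 20.5% of all measured genes, a count too small to set the 7 apart.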
